A study of Mus musculus with 6 samples.

Results

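The 9 genes described here handle vitamin A (retinol and its derivatives) in the liver: Lrat, Rbp4, Retsat, Rdh9, Dhrs3, Aldh1a1, Aldh1a7, Cyp26a1 and Rarb. The genes were named with earlier results of the same arrays known, so their differences are not independent support for any pattern. A gene's probe set was chosen by its mean log2 value over both groups, the brightest being kept, but each of the 9 genes had 1 probe set and the mean decided nothing. They are 9 of the 22180 genes that entered the test, and all 9 lay above the limit for dim probe sets. Livers of male C57BL/6N mice aged 2 months were profiled on Affymetrix whole-transcript arrays, with 3 samples labelled cGK1-KO and 3 samples labelled WT. The cGK1-KO mice lack cGMP-dependent protein kinase 1 (gene Prkg1) and, per the series design text, carry a smooth muscle rescue of it; the same text calls the WT mice controls. The promoter of the rescue and the number of animals behind a sample are not given in the sources used here. The series as a whole concerns this kinase in the activation of hepatic stellate cells, the cells that store vitamin A. RNA came from whole liver, so fewer cells of a type and less RNA per cell cannot be told apart.

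Most vitamin A of the body is held as retinyl esters in the lipid droplets of hepatic stellate cells, where the acyltransferase LRAT makes the ester. Hepatocytes take up dietary retinoid, pass retinol on, and secrete it into blood bound to RBP4. Retinol is oxidised to retinal by short-chain dehydrogenases and further to retinoic acid by ALDH1A enzymes, retinoic acid acts through the nuclear receptors RAR and RXR, and CYP26 enzymes break it down. Stellate cells that become activated lose their vitamin A stores. From this general knowledge Retsat, Rbp4, Cyp26a1, Aldh1a1, Aldh1a7 and Rdh9 were treated as mainly hepatocyte genes, Lrat and Rarb as mainly stellate cell genes, and Dhrs3 as a gene of several liver cell types. The arrays cannot check this assignment.

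Rarb and Cyp26a1 are textbook targets of retinoic acid, and their promoters carry the element through which its receptor acts. The element is a direct repeat of 2 hexamers spaced by 5 bases, called DR5. It was searched on both strands of RefSeq windows (GRCm38.p6) of 250 bases before to 50 bases after a gene's start, with each hexamer being AGGTCA or AGTTCA or GGTTCA or GGGTCA. Windows were found for 9 of 9 members, 13 windows in all, and the members with a match were Rarb and Cyp26a1, while 0.0974% of all 32851 windows held one. Repeats spaced by 1 or 2 bases (DR1 and DR2), which occur in 0.222% and 0.268% of all windows, had no match in the members' windows. The 250 bases before each start are shown 5′ to 3′ on the gene's strand because they hold the element, with the hexamers in capitals. Rarb lies at chr14:16575477-16575726 (minus strand) with the repeat beginning 53 bases before the start, and Cyp26a1 at chr19:37697558-37697807 (plus strand) with the repeat, on the opposite strand, beginning 32 bases before the start.
Rarb: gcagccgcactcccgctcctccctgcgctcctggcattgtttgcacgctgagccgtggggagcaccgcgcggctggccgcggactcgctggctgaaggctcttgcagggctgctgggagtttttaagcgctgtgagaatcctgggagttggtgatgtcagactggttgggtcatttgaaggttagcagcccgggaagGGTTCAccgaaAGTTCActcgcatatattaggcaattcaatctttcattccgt
Cyp26a1: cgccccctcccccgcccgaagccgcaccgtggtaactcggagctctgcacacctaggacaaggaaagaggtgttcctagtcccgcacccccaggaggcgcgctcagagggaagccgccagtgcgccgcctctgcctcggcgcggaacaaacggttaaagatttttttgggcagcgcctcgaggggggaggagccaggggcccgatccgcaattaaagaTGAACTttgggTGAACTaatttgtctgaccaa

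Aldh1a1 and Aldh1a7 are neighbouring genes on mouse chromosome 19, with no protein-coding gene between them in the RefSeq table, and they are shown because they are neighbours that were both lower on every cGK1-KO array. Over the 6 arrays their values correlated at 0.87 (Pearson), a description that also holds for other pairs of members, such as Retsat with Rbp4 at 0.91 and Lrat with Rarb at 0.88. RefSeq lists 2 starts for Aldh1a1. Over the 300-base windows the second start shared 70.4% of aligned positions with Aldh1a7 and the first start 50.6%. Over the 250 bases before the start, the second window of Aldh1a1 (chr19:20601718-20601967, plus strand) and that of Aldh1a7 (chr19:20727557-20727806, minus strand) matched in 65.7% of 268 aligned columns. Capitals mark the 3 runs of at least 12 identical bases, the longest of 65 bases.
Aldh1a1: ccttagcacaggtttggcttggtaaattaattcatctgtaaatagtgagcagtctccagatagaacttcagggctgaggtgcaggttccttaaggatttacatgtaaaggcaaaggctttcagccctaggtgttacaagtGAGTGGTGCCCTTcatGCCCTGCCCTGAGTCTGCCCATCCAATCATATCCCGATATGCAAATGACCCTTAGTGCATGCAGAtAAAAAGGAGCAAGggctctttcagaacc
Aldh1a7: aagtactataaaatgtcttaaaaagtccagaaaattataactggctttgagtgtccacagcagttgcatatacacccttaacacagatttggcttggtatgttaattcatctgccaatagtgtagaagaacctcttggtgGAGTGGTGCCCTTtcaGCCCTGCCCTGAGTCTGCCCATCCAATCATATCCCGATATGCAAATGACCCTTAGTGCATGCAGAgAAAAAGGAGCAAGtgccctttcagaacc

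Expression values are log2 RMA values, so 1 unit is a doubling, and differences are cGK1-KO minus WT with n = 3 arrays per group throughout. The median of an array was 3.11 to 3.16. Over all genes (not independent of each other) arrays correlated at 0.978 to 0.983 among cGK1-KO samples, 0.978 to 0.983 between the groups and 0.989 to 0.990 among WT samples, so the cGK1-KO arrays were the more variable group. Prkg1 lay at 3.31, 3.04 and 3.22 in cGK1-KO and 3.32, 2.97 and 2.95 in WT, near the limit for dim probe sets (3.11), so it does not check the labels. The liver label was checked on hepatocyte markers, of which the 4 brightest, the plasma protein and enzyme genes Alb, Apoa2, Cyp2e1 and Apob, averaged 13.4, 12.7, 12.6 and 12.3 over the 6 arrays. Their log2 differences were 0.04, 0.01, 0.02 and -0.17, and Apob was lower without overlap. Over all 22180 genes 0% passed limma's adjusted p of 0.05, while 9.14% had all 3 cGK1-KO values below all 3 WT values and 7.61% had all 3 above. At an unadjusted p under 0.05 lay 5.46% of genes as lower and 5.06% as higher.

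Retsat, Aldh1a1, Aldh1a7 and Rbp4 were lower on every cGK1-KO array than on any WT array (4 of 9), Rdh9 was higher on every cGK1-KO array (1 of 9), and Lrat, Rarb, Cyp26a1 and Dhrs3 overlapped between the groups. At an unadjusted p under 0.05 there were 3 lower members (Retsat, Aldh1a1 and Aldh1a7) and 1 higher member (Rdh9). In limma's test 0 of 9 passed the adjusted threshold, so none of these differences was called. The median log2 difference of the 9 was -0.11, with 5 negative, against 0.0011 over all genes with 11047 of 22180 negative.

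**Figure D1:**
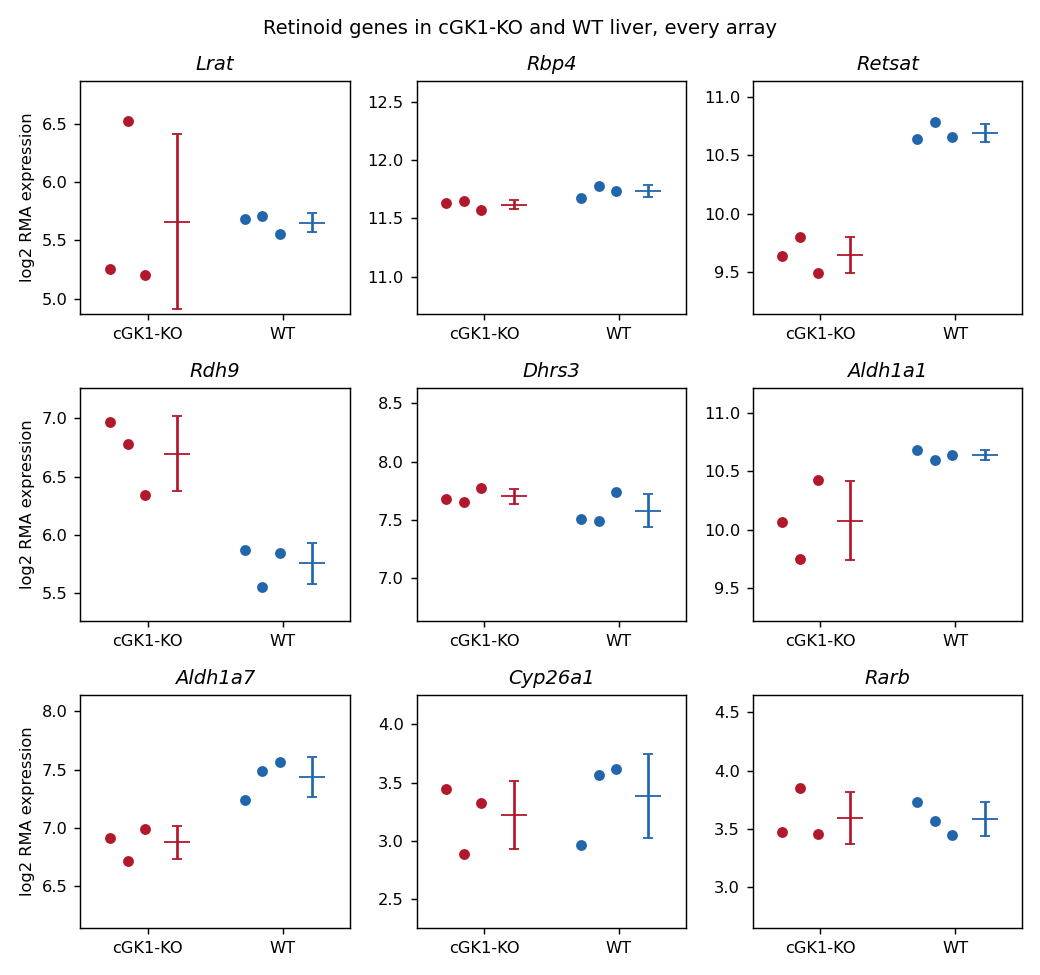
Log2 RMA expression (y axis, each panel spanning 2 log2 units) of the 9 retinoid genes, cGK1-KO arrays in red and WT arrays in blue. Points from left to right are replicates 1, 2 and 3, and bars show the mean ± SD (n = 3). Retsat and Rdh9 show the widest separation, and Lrat has a single high cGK1-KO array at 6.53.

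**Figure D2:**
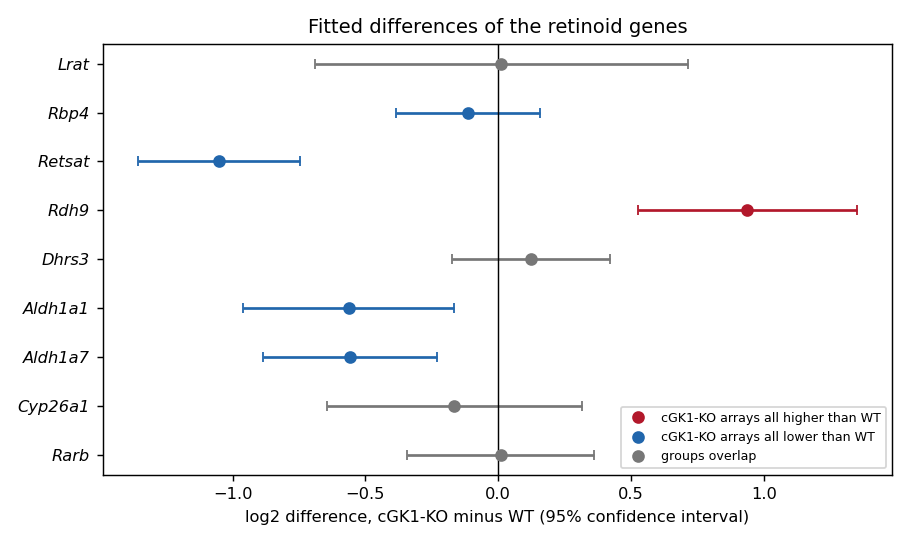
Log2 difference, cGK1-KO minus WT, with its 95% confidence interval from limma (x axis) for each gene. The intervals of Retsat, Rdh9, Aldh1a1 and Aldh1a7 do not include 0 before adjustment, and those of Lrat, Rbp4, Dhrs3, Cyp26a1 and Rarb do.

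Storage and export come first in the pathway. Lrat, the enzyme that esterifies retinol in stellate cells, lay at 5.25, 6.53 and 5.21 in cGK1-KO replicates 1 to 3 and at 5.68, 5.71 and 5.56 in WT. cGK1-KO replicates 1 and 3 were below all WT arrays and replicate 2 was above them. The group means were 5.66 ± 0.75 in cGK1-KO and 5.65 ± 0.08 in WT (SD), a log2 difference of 0.01 (SE 0.31, limma adjusted p = 0.994). The 95% interval of -0.69 to 0.71 spans ratios from 0.620-fold to 1.64-fold, so a loss down to 0.620-fold is not excluded by these arrays. Without cGK1-KO replicate 2 the difference was -0.42, with an adjusted p of 0.330. The groups then no longer overlapped, which follows from leaving out the only cGK1-KO array above any WT array. Over 14 alternatives the adjusted p ranged from 0.330 to 0.998.

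cGK1-KO replicate 2 also stood high in markers of other non-hepatocyte cells. Of 12 endothelial cell markers 11 were highest on this array among all 6, as were 11 of 12 Kupffer cell and macrophage markers and 10 of 18 quiescent stellate cell markers, but 4 of 15 hepatocyte markers. Relative to the WT mean, the median marker on cGK1-KO replicates 1, 2 and 3 lay at 0.01, 0.26 and 0.08 log2 units for quiescent stellate cells, at -0.06, 0.69 and 0.02 for endothelial cells, and at 0.73, 1.53 and 0.39 for macrophages. On the same scale Lrat lay at -0.40, 0.88 and -0.44, below the WT mean on replicates 1 and 3, where the median endothelial marker was close to it. The linear level was also summed per list, and the brightest markers add most to such a sum. For the quiescent stellate list it ranged from 1043 to 1921 in cGK1-KO and from 952 to 1161 in WT. Dcn was the brightest of these 18 markers, and 2 were dim in both groups. For the endothelial list the sum ranged from 1088 to 1780.1 in cGK1-KO and 1039.7 to 1068 in WT. For the macrophage list it ranged from 919 to 2115 in cGK1-KO and 682 to 736 in WT. The last 2 lists held 0 dim markers. The macrophage list was not high on replicate 2 alone: 12 of 12 markers had positive differences (median 0.84), 11 were higher without overlap, 12 had an unadjusted p under 0.05 and 0 passed limma's adjusted threshold. Of the 12 endothelial markers 3 were higher without overlap, with a median of 0.15. Over all genes 7.61% were higher without overlap and 5.06% were higher at an unadjusted p under 0.05. The part of these cell types in the Lrat values was not tested.

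The 4 brightest quiescent stellate markers were Dcn, Ecm1, Rgs5 and Reln, and their log2 differences were 0.45, 0.54, 0.53 and 0.01. Ecm1 was higher without overlap (limma adjusted p = 0.429), while Dcn, Rgs5 and Reln overlapped (0.621, 0.580 and 0.992). Dcn lay at 8.60, 9.80 and 8.69 in cGK1-KO and at 8.82, 8.54 and 8.39 in WT. Rgs5 lay at 6.48, 7.70 and 6.36 in cGK1-KO and at 6.26, 6.48 and 6.21 in WT. Both were highest on cGK1-KO replicate 2. Over the 18 measured markers the median was 0.07, with 11 positive, 3 higher without overlap, 0 lower and 0 past the adjusted threshold. Among 14 activated stellate cell and fibroblast markers 11 were positive with a median of 0.25, and 3 were dim in both groups. The 4 brightest, Fn1, Vim, Postn and Col1a1, had 0.36, 0.27, 1.09 and 0.13, and of these only Fn1 did not overlap. Over the 6 arrays Fn1 averaged 11.4, near the hepatocyte markers Apoa1 (11.6) and Apoh (11.1), while Vim averaged 6.01. Which cells gave the Fn1 signal was not tested, so it is not read as a sign of stellate cells. Col3a1, a fibrillar collagen, had the largest statistic of the list, with 0.86 (limma adjusted p = 0.130). Acta2, the smooth muscle actin of activated cells, had -0.39 (adjusted p = 0.413). In this list 3 were higher, Fn1 included, and 1 (Acta2) lower without overlap, and 0 passed. Over all genes 7.61% were higher and 9.14% lower without overlap.

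**Figure D3:**
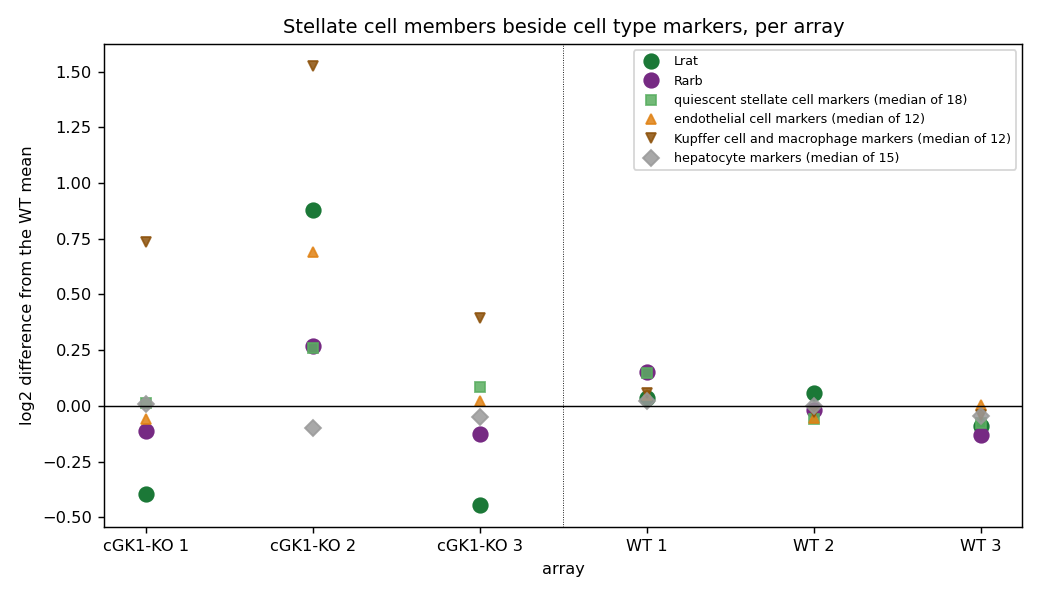
Log2 difference of each array from the WT mean (y axis) for Lrat and Rarb and for the median marker of 4 liver cell types, with cGK1-KO arrays left of WT arrays. On cGK1-KO replicate 2 Lrat (0.88), Rarb (0.27), endothelial markers (0.69) and macrophage markers (1.53) were all at their highest.

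Rbp4, the carrier that takes retinol from hepatocytes into blood, lay at 11.63, 11.65 and 11.58 in cGK1-KO and at 11.68, 11.78 and 11.74 in WT. The groups did not overlap, but only 0.03 log2 units separated the highest cGK1-KO from the lowest WT array. The difference was -0.11 (SE 0.12, adjusted p = 0.775), with a 95% interval of -0.38 to 0.16. When the arrays were quantile-normalized again the difference was -0.21 (adjusted p = 0.591). Ttr, the blood protein that binds RBP4, had a difference of 0.04.

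Retsat, which saturates retinol to 13,14-dihydroretinol, showed the largest separation among the members. It lay at 9.63, 9.80 and 9.49 in cGK1-KO and at 10.64, 10.78 and 10.65 in WT, so that 0.84 log2 units lay between the groups. Means were 9.64 ± 0.15 in cGK1-KO and 10.69 ± 0.08 in WT (SD), and Retsat was 2.07-fold lower (log2 difference -1.05, SE 0.13, 95% interval -1.35 to -0.75, limma adjusted p = 0.0761). Its p was number 7 from the smallest among 22180 genes. It missed the threshold in the main model and passed it in 3 of 14 alternatives: with dim genes filtered out (adjusted p = 0.0390, where 0.0587% of 13640 genes passed), when the variance prior followed intensity (0.0202, where 0.113% passed), and without cGK1-KO replicate 3 (0.0383, where 0.298% passed). Over the 14 alternatives the adjusted p ranged from 0.0202 to 0.456 and the log2 difference from -1.13 to -0.98.

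The promoter of Retsat is shown because no other member differed as much. Its 250 bases before the start (chr6:72598352-72598601, plus strand, RefSeq GRCm38.p6) hold the letters TATAAA, in capitals, beginning 30 bases before the start, and 13.6% of all windows hold these letters on either strand. They held no DR1, DR2 or DR5 match in the search described for Rarb.
Retsat: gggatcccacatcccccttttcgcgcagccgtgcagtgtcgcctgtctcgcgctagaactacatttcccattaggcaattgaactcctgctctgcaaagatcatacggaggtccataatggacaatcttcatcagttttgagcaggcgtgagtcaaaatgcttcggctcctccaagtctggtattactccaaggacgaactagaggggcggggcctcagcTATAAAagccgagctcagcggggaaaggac

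The genes whose pattern over the 6 arrays was most like that of Retsat, among 1135 genes above the dim limit with a range of at least 1 log2 unit, were Plin5 (Pearson r = 0.982), Abcg2 (0.968), Hsdl2 (0.967), Zfp982 (0.965) and Rab30 (0.963). Plin5 coats lipid droplets and Abcg2 is an efflux transporter. All 5 had negative differences, from -1.01 for Plin5 to -0.79 for Hsdl2, and like Retsat they did not overlap between the groups. This follows from choosing them by correlation with Retsat, whose own values separate the groups, and is no further support.

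Rdh9, a short-chain dehydrogenase of the retinol and steroid dehydrogenase family, went the other way. It lay at 6.97, 6.78 and 6.34 in cGK1-KO and at 5.88, 5.56 and 5.85 in WT, with every cGK1-KO array above every WT array by at least 0.47. Means were 6.70 ± 0.32 in cGK1-KO and 5.76 ± 0.18 in WT (SD), a 1.91-fold ratio (log2 difference 0.94, SE 0.18, 95% interval 0.53 to 1.35, limma adjusted p = 0.204). cGK1-KO replicate 3 lay nearest to WT, and without it the difference was 1.11 with an adjusted p of 0.0375, below the threshold. Over the 14 alternatives the adjusted p ranged from 0.0375 to 0.642.

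Rdh9 sits in a run of related genes on mouse chromosome 10 that follow each other in the RefSeq table as Rdh1, Rdh9, Rdh16, Rdh19, Rdh16f2 and Rdh7. These neighbours did not share a direction. Rdh16f2 lay at 7.34, 7.87 and 7.53 in cGK1-KO and at 6.78, 6.60 and 6.38 in WT, a log2 difference of 1.00 (SE 0.17, adjusted p = 0.151), about as large as that of Rdh9. Rdh1, at -0.01, and Rdh16, at -0.08, overlapped between the groups, and Rdh7, at -0.25 (adjusted p = 0.530), was lower on each cGK1-KO array. Rdh19 had -0.93 but was dim in both groups, so its size is uncertain. Whether probe sets of this run share signal was not tested.

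Dhrs3, which reduces retinal back to retinol, lay at 7.68, 7.65 and 7.78 in cGK1-KO and at 7.51, 7.49 and 7.74 in WT. The groups overlapped through WT replicate 3, and the difference was 0.12 (SE 0.13, 95% interval -0.17 to 0.42, adjusted p = 0.776). Without WT replicate 3 it was 0.20 and the groups did not overlap, and without WT replicate 2 it was 0.078. Dhrs3 is known to be induced by retinoic acid.

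Aldh1a1, which converts retinal to retinoic acid, lay at 10.06, 9.75 and 10.42 in cGK1-KO and at 10.69, 10.60 and 10.64 in WT. The cGK1-KO arrays spread widely (SD 0.34) and the WT arrays little (SD 0.04). Its log2 difference was -0.56 (1.48-fold lower, SE 0.18, 95% interval -0.96 to -0.17, adjusted p = 0.343).

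Aldh1a7, its rodent neighbour whose part in retinal oxidation is less settled, lay at 6.92, 6.72 and 6.995 in cGK1-KO and at 7.24, 7.49 and 7.57 in WT. The log2 difference was -0.56 (1.47-fold lower, SE 0.14, 95% interval -0.88 to -0.23, adjusted p = 0.279). In both genes replicate 2 was the lowest and replicate 3 the highest cGK1-KO array, whereas WT replicate 1 was the highest WT array for Aldh1a1 and the lowest for Aldh1a7. Whether the probe sets of these related genes share signal was not tested. Leaving out single arrays moved Aldh1a1 between -0.74 and -0.40 and Aldh1a7 between -0.65 and -0.48, and neither passed in any of 14 alternatives.

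Cyp26a1, the main retinoic acid hydroxylase of adult liver, lay at 3.45, 2.89 and 3.32 in cGK1-KO and at 2.97, 3.57 and 3.62 in WT, close to the dim limit of 3.11. The lowest array of each group, cGK1-KO replicate 2 and WT replicate 1, lay well under the others of its group. The difference was -0.16 (SE 0.21, 95% interval -0.64 to 0.31, adjusted p = 0.819). The difference changed with single arrays. Without cGK1-KO replicate 2 it was -0.00015, without WT replicate 2 -0.07 and without WT replicate 3 -0.05. Without WT replicate 1 it was larger, at -0.37, and the groups did not overlap. This lack of overlap follows from leaving out the only WT array that lay below any cGK1-KO array.

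Rarb, the retinoic acid receptor gene that retinoic acid itself induces, lay at 3.47, 3.85 and 3.46 in cGK1-KO and at 3.73, 3.57 and 3.45 in WT. The ranges overlapped nearly in full, and the difference was 0.01 (SE 0.16, 95% interval -0.34 to 0.36, adjusted p = 0.991). Like Lrat, it was highest on cGK1-KO replicate 2. The pair with the DR5 element in its promoter, Rarb and Cyp26a1, thus had intervals that include 0 and span ratios from 0.789-fold to 1.28-fold for Rarb and from 0.640-fold to 1.24-fold for Cyp26a1. Both signals are near the dim limit.

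Patterns most like Lrat over the 6 arrays, by the same rule as for Retsat, were those of Abcb1a (r = 0.982), Tfpi (0.973), Fabp7 (0.966), Adamts1 (0.963) and Oit3 (0.952). Oit3 is a member of the endothelial marker list. All 5 were highest on cGK1-KO replicate 2, which weighs heavily in these correlations. For Cyp26a1 they were Tuba8 (0.946), Asns (0.902), 0610009E02Rik (0.830), Mir1948 (0.820) and 2610044O15Rik8 (0.811).

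Of the 6 mainly hepatocyte members 4 were lower and 1 higher without overlap, and of the 2 mainly stellate members 0 were, where 9.14% of all genes were lower and 7.61% higher in this way. The median log2 difference was -0.36 for the hepatocyte members and 0.01 for the stellate members. This contrast rested on cGK1-KO replicate 2: without that array the medians were -0.26 for the hepatocyte members and -0.27 for the stellate members. The 15 hepatocyte markers had a median of -0.02, with 4 lower and 2 higher without overlap. The difference between both sets of members was not tested, since they hold 6 and 2 genes chosen with results known.

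**Figure D4:**
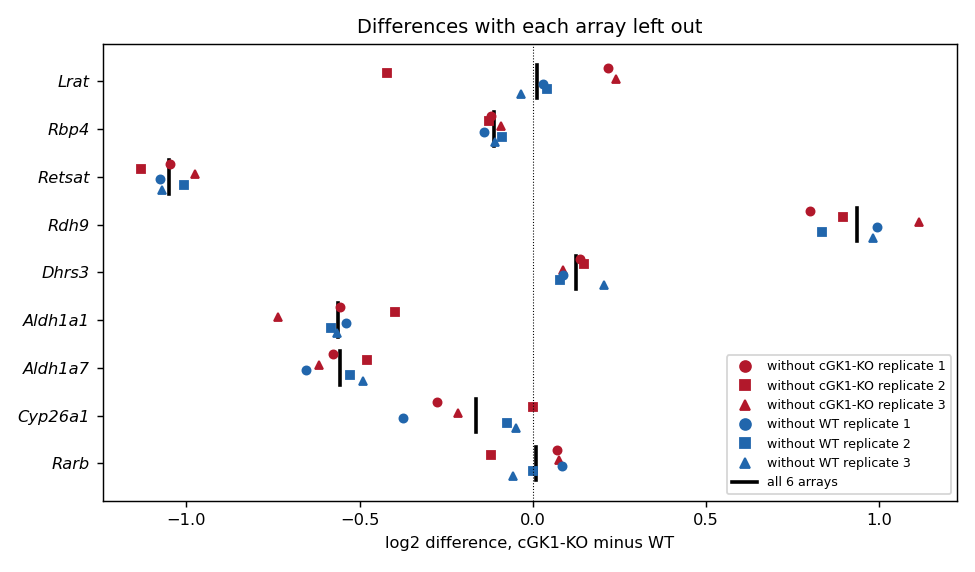
Log2 difference, cGK1-KO minus WT (x axis), of each gene with all 6 arrays (black bar) and with each array left out in turn (symbols). Retsat stayed between -1.13 and -0.98, while Lrat moved between -0.42 and 0.24.

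Other genes of the pathway were taken from 7 lists written from general knowledge, of which 75 genes were measured apart from the members. In limma's test 0 of 75 passed the adjusted threshold. At an unadjusted p under 0.05, 8 were lower and 6 higher, where 5.46% and 5.06% of all genes were. Without overlap 7 were lower and 8 higher (9.33% and 10.7%, near the shares of 9.14% and 7.61% over all genes). Their median log2 difference was -0.01, against 0.0011 over all genes.

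In uptake, transport and binding 9 genes were measured, with a median of -0.02. Rbp7, a cellular retinol-binding protein, had -0.37 (adjusted p = 0.398) and was lower without overlap. The retinol receptor gene Stra6 had -0.29, the lipoprotein receptor gene Scarb1, which also takes up carotenoids, 0.26, and the chylomicron remnant receptor gene Lrp1 0.10, all overlapping.

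In ester synthesis and hydrolysis 12 genes were measured. Lpl, the lipoprotein lipase that can release retinol from chylomicron esters, lay at 6.88, 6.79 and 6.19 in cGK1-KO and at 5.23, 4.80 and 5.39 in WT, a 2.79-fold ratio (log2 difference 1.48, SE 0.22, adjusted p = 0.0902). The carboxylesterase genes Ces1g and Ces1f had opposite signs at 0.91 (adjusted p = 0.249) and -0.85 (0.317). Both belong to the Ces1 gene family, and whether their probe sets share signal was not tested. Lipa, the lysosomal acid lipase, had -0.18 without overlap. Dgat1, which can also esterify retinol, had -0.23 and overlapped.

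Among 25 other oxidising and reducing enzymes (7 dim in both groups) 4 were lower, the dim Rdh19 included, and 3 higher without overlap. The shares over all genes were 9.14% and 7.61%. Beside the chromosome 10 run the lower enzymes included Aox1, an aldehyde oxidase that can act on retinal. It lay at 5.77, 5.84 and 6.39 in cGK1-KO and 6.83, 6.62 and 6.91 in WT (-0.79, SE 0.18, limma adjusted p = 0.242). Dhrs4, a retinal reductase of peroxisomes, had -0.36 (adjusted p = 0.370). The other retinal dehydrogenases Aldh1a2 and Aldh1a3 were dim in both groups, so their differences are not read.

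Among 5 enzymes of retinoic acid breakdown the largest statistics were those of Cyp3a11 (0.33), Cyp26c1 (dim in both groups), Cyp2c39 (-0.20) and Cyp26b1 (-0.16), all overlapping. Carotenoid cleavage was measured by 3 genes, Bco1 (0.01) and Bco2 (-0.17), which overlapped, and their regulator Isx, which was dim in both groups.

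Of 11 receptors and co-regulators Rara had 0.27 (adjusted p = 0.527) and was the only gene of this list without overlap, as higher. Fabp5, a fatty acid binding protein that also binds retinoic acid, had 0.31, and the RXR genes Rxrg and Rxrb had 0.28 and -0.23. Rxra, the main RXR of hepatocytes, had -0.07.

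The 10 measured target genes named for retinoic acid in various tissues had a median of 0.20 with 8 positive, where 11133 of all 22180 genes were positive. Hoxa5 and Ucp1, both among the 8, were dim in both groups, so their signs are not read. Pdk4, a pyruvate dehydrogenase kinase that fasting also induces, had -1.12 (SE 0.22, adjusted p = 0.204), Fgf21, a hormone of the fasted liver, -0.64 (0.407), Btg2, an antiproliferative gene, 0.84 (0.346), and Fgf8 0.32 (0.430). Pdk4 and Fgf21 were the 2 negative members, against the sign of the median.

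**Figure D5:**
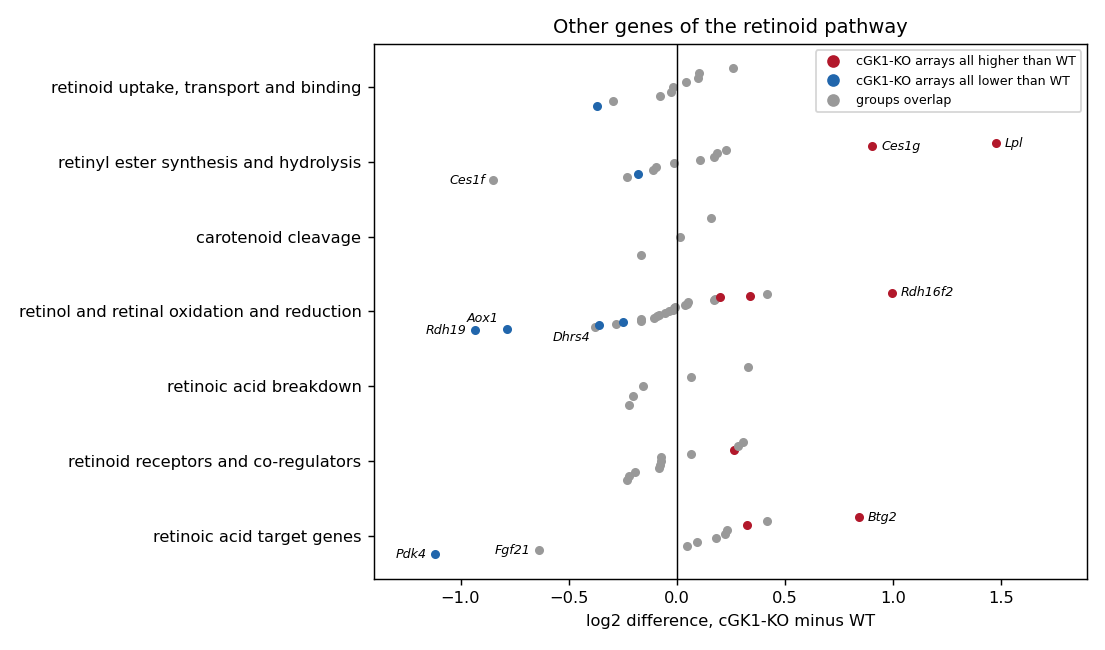
Log2 difference, cGK1-KO minus WT (x axis), of each measured gene in the 7 other retinoid lists. Colours mark genes whose groups do not overlap, and the named genes include Lpl (1.48), Rdh16f2 (1.00) and Pdk4 (-1.12).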

How the data were processed

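Liver RNA of 6 samples was measured on 1 array each. The submitters' processing notes name Expression Console 1.4.1 (Affymetrix) with RMA, and the authors' deposited table holds log2 values of 41345 probe sets, which RMA background-corrects, sets to a common distribution and summarises. A shift of most genes in the same direction would therefore not be visible. Of the probe sets, 23521 had 1 symbol in the platform annotation, 1814 several and 16010 none listed, and the brightest probe set per gene left 22180 genes.

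Here limma 3.58.1 in R 4.3.3 (statmod 1.5.0) was fitted over all genes on group, cGK1-KO minus WT, with 2-sided p-values adjusted by Benjamini-Hochberg and a threshold of 0.05. The model was also run on simulated data with the same spread in both groups. Here the median SD of a gene was 0.193 in cGK1-KO and 0.146 in WT, so that run does not cover the unequal spread. The dim limit, 3.11, is the median probe set mean. The members, the gene lists and the tests were chosen with earlier results of these data known. Named genes are the members, the 4 genes of each pathway list with the largest statistic, up to 4 of the brightest markers per list, the 5 genes most correlated with Retsat, Lrat and Cyp26a1, and Prkg1. Others, such as Ttr, Col3a1, Acta2, Dgat1, Rxra, Rdh1, Rdh7, Rdh16, Aldh1a2 and Aldh1a3, were named after their values were seen. All 9 members matched RefSeq by gene number, and promoter sequences, matched by symbol, are RefSeq's (GRCm38.p6).

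The labels number replicates 1 to 3 in each group. Deviations of same-numbered arrays from their group means correlated at 0.0064, 0.05 and 0.02, so the numbers were not taken as pairs. The labels do not say that samples were separate animals, and p-values then reflect the spread among these samples alone, which may be technical. Precision is limited by having 3 arrays a group. Alternatives were other scalings, a dim filter, other variance priors, array weights, a replicate block, the mean of a gene's probe sets and leaving out each array.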

Additional observations from a re-analysis of the deposited data

How the results depend on the processing

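Of the 14 alternatives the dim filter, the intensity trend, the robust prior, the replicate block and the mean of probe sets leave a member's difference as it is and bear on its p alone. In the others (2 rescalings, array weights and each array left out) Retsat, Aldh1a1, Aldh1a7, Rbp4, Cyp26a1, Rdh9 and Dhrs3 kept their direction, Cyp26a1 at only -0.00015 without cGK1-KO replicate 2. The rescalings alone could have brought the groups of the 5 separated members to overlap, and did not. The number of genes past the threshold, 0 in the main model (2334 at an unadjusted p under 0.05), was 8 with the dim filter, 25 with an intensity trend and 0 to 66 with an array left out, the 66 being without cGK1-KO replicate 3. With the replicate block 1 gene (Elovl3) passed, and 3 (Lcn2, Rabggtb and Snord13) without WT replicate 3; these 4 are named after their values were seen. Of the members 1 (Retsat) passed with the dim filter, 1 (Retsat) with the trend, and 0 to 2 with an array left out, Retsat and Rdh9 without cGK1-KO replicate 3. Of the pathway genes 1 (Lpl) passed with the trend and 0 to 2 with an array left out (Lpl and Aox1, without cGK1-KO replicate 3). Near 0, the difference changed sign with single arrays left out for Lrat (-0.42 to 0.24) and Rarb (-0.12 to 0.084). The cause was not tested. With the replicate block the adjusted p of Retsat was 0.146. Signal near background limits Cyp26a1 and Rarb.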
